A study of Mus musculus with 16 samples.

Results

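Open chromatin was compared between Scml2-knockout (Scml2-KO) and wild-type Thy1+ spermatogonia of C57BL/6 mice, purified from testes at postnatal day 7. The comparison used the 4 peak lists whose sample titles name Thy1 cells, 2 of Scml2-KO and 2 of wild type, out of 16 libraries in the series. The other 12 libraries came from c-Kit+ spermatogonia (cKit), pachytene spermatocytes and round spermatids of the same genotypes. The assay was ATAC-seq, in which the Tn5 transposase cuts accessible DNA and leaves sequencing adapters there. The Scml2-KO label names no allele or design of the deletion, and the labels do not say whether the cells of a library came from 1 animal or a pool, or whether replicates came from separate animals. Spread between replicates may therefore be technical.

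SCML2 is a Polycomb-related protein of the male germ line, encoded on the X chromosome, that is known in mouse for its part in shutting down somatic genes in late spermatogenesis and for its work on the sex chromosomes in meiosis. Polycomb complexes hold developmental regulators such as the Hox genes in a repressed state through marks on histones H2A and H3. Thy1 is a surface protein used to enrich the stem and progenitor cells of the juvenile testis from which spermatogenesis is renewed.

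Peaks of the 4 lists that overlapped were merged into 156558 autosomal regions, and a region was called open in a library that had a peak in it. A missing peak means that no signal there passed the caller's threshold, not that the chromatin was closed. The lists held 108184 and 50739 autosomal peaks in Scml2-KO cells, against 132760 and 73211 in wild-type cells. The fold enrichment used below is the authors' own ratio for each peak, the height at its summit over a background, both raised by 1. That background was 0.963 and 0.258 in the Scml2-KO lists and 0.658 and 0.834 in the wild-type lists, so Scml2-KO replicate 2 stood apart by both the lowest background and the shortest list. Scml2-KO replicate 1 shared more of its regions with wild-type replicate 1 than with the other Scml2-KO library: the shared part of all regions open in either was 0.366 between the Scml2-KO libraries, 0.432 between the wild-type libraries and 0.565 between the replicate 1 libraries. List length therefore differed within each genotype, and its part in the counts below was addressed by repeating them on the 52113 peaks with the best q value in each list.

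The promoter of Scml2 itself, on the X chromosome, carried a peak in all 4 libraries. Its fold enrichment was 11.7 and 7.15 in Scml2-KO cells, against 10.3 and 11.5 in wild-type cells, and an open promoter does not check a deletion that leaves the promoter in place. Most promoters of genes that mark stem and progenitor spermatogonia were open in both genotypes, at shares not far from those of all autosomal genes. Of 29 such genes, 23 and 19 had a promoter peak (within 1 kb of a transcription start site) in Scml2-KO cells, against 23 and 22 in wild-type cells, and 18 had one in all 4 libraries. These were 79.3% and 65.5% of the list in Scml2-KO cells, against 79.3% and 75.9% in wild-type cells. Over all autosomal genes the shares were 72.5% and 66.2% in Scml2-KO cells, against 74.9% and 70.0% in wild-type cells. Lin28a, Nanos3, Pax7, Sohlh1 and T had no promoter peak in any of the 4 libraries. The genes named as examples from the lists were chosen after their values were seen. Etv5, a transcription factor of stem cell renewal, had a fold enrichment of 35.2 and 23.8 in Scml2-KO cells, against 35.0 and 32.7 in wild-type cells. Gfra1, the GDNF receptor of these stem cells, was at 5.09 and 3.97 in Scml2-KO cells, against 6.63 and 6.00 in wild-type cells. Zbtb16 (PLZF), a regulator of progenitor maintenance, was at 11.2 and 4.77 in Scml2-KO cells, against 10.3 and 9.82 in wild-type cells. Kit, the receptor of the differentiating stage, was open in all 4 libraries as well, at 12.7 and 5.56 in Scml2-KO cells, against 16.9 and 11.5 in wild-type cells.

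Markers of other testis cells gave a mixed picture in both genotypes. Of 13 endothelial genes, 10 and 7 had a promoter peak in Scml2-KO cells, against 9 and 8 in wild-type cells, and Cdh5, Kdr, Flt1 and Tek were among the 7 open in all 4 libraries. Of 13 Leydig and steroidogenic genes, 8 and 5 had one in Scml2-KO cells, against 9 and 6 in wild-type cells, and Lhcgr, Nr5a1 and Scarb1 were among the 5 open in all 4 libraries. Other markers of these cells, the endothelial gene Pecam1 and the Leydig cell enzymes Cyp11a1 and Cyp17a1, had none in any of the 4 libraries, and neither had the leukocyte gene Ptprc. Of 22 Sertoli cell genes, 20 and 16 had a promoter peak in Scml2-KO cells, against 20 and 19 in wild-type cells. They summed to a fold enrichment of 263 and 145 in Scml2-KO cells, against 288 and 232 in wild-type cells, which was 0.0980% and 0.0888% of the sum over all promoters in Scml2-KO cells, against 0.0912% and 0.0910% in wild-type cells. Of 14 blood and immune genes, 5 and 4 had one in Scml2-KO cells and likewise 5 and 4 in wild-type cells, with sums of 48.9 and 26.2 in Scml2-KO cells, against 54.9 and 40.9 in wild-type cells. Of all promoters that was 0.0182% and 0.0161% in Scml2-KO cells, against 0.0174% and 0.0160% in wild-type cells, and for both lists the scaled groups overlapped. For the endothelial list they did not, at 0.0234% and 0.0263% in Scml2-KO cells, against 0.0212% and 0.0211% in wild-type cells. That was not particular to this list. By the same measure the groups did not overlap for genes of differentiating spermatogonia or of sex chromosome silencing and DNA damage, higher in Scml2-KO cells. Nor did they for Polycomb, neuronal and developmental regulator genes outside the Hox clusters, lower in Scml2-KO cells. No p was computed for these sums. The Leydig list, at 0.0272% and 0.0200% in Scml2-KO cells, against 0.0327% and 0.0271% in wild-type cells, overlapped. So did 15 peritubular genes, at 0.0653% and 0.0434% in Scml2-KO cells, against 0.0644% and 0.0519% in wild-type cells. Fewer cells of a type and less open chromatin per cell cannot be told apart in such bulk libraries.

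Far fewer regions were open in both Scml2-KO libraries and neither wild-type library than the reverse. As deposited, 686 of the 156558 regions (0.438%) had a peak in both Scml2-KO libraries and in neither wild-type library, whereas 4901 (3.13%) had a peak in both wild-type libraries and in neither Scml2-KO library. Another 33944 regions were open in all 4 libraries. With lists of equal length the counts were 1477 (0.943%) open in Scml2-KO cells alone and 2182 (1.39%) open in wild-type cells alone, so the ratio between the directions depended strongly on list length. Patterns that cross the genotypes were counted as well. As deposited, 25036 regions were open in the replicate 1 libraries alone and 237 in the replicate 2 libraries alone. Scml2-KO replicate 1 and wild-type replicate 2 alone shared 2021, and the remaining pair alone 1203. With equal lists these patterns held 4467, 1781, 2058 and 1288 regions, a range that includes both genotype counts. With 2 against 2 libraries the smallest two-sided exact p is 0.333, and no region was tested by presence.

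The regions behind the counts changed with list length. Only 70 of the Scml2-KO regions and 357 of the wild-type regions had the pattern both as deposited and with equal lists. Of the 1477 Scml2-KO regions found with equal lists, 570 were open in all 4 lists as deposited and 837 in 3 of them. Of the 2182 wild-type regions, 1825 were open in 3 lists as deposited. Single libraries moved the counts as well, since a pattern over fewer libraries is easier to meet. Regions open in Scml2-KO cells alone numbered 3879 without Scml2-KO replicate 1, 18537 without Scml2-KO replicate 2 and 5556 without wild-type replicate 1. Regions open in wild-type cells alone numbered 23664 without Scml2-KO replicate 1, 11748 without wild-type replicate 1 and 41025 without wild-type replicate 2.

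**Figure D1:**
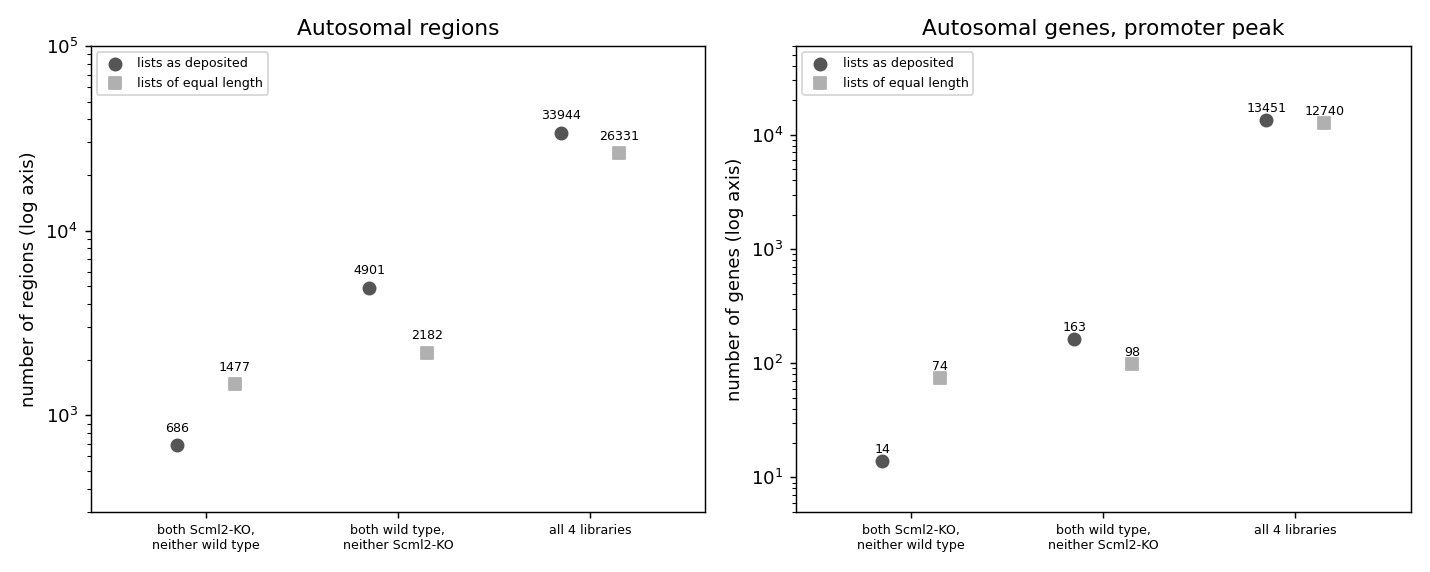
Number of autosomal regions (left) and autosomal genes with a promoter peak (right) open in both Scml2-KO and neither wild-type library, in both wild-type and neither Scml2-KO library, and in all 4 libraries, on log axes; dark circles are the lists as deposited and pale squares the lists shortened to equal length. The 686 and 4901 regions as deposited lie far apart, and the 1477 and 2182 regions of the equal lists lie close together.

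Regions open in 1 genotype alone were weaker and farther from start sites than regions open in all 4 libraries, as were regions open in any 2 libraries. The lower of the 2 fold enrichments had a median of 3.57 and a highest value of 6.11 over the 686 Scml2-KO regions, and a median of 3.82 and a highest value of 10.4 over the 4901 wild-type regions. The highest fold enrichment of a region had a median of 4.59 over the Scml2-KO regions and 4.91 over the wild-type regions, against 12.2 over regions open in all 4 libraries. Promoters, in the authors' classes, made up 10.8% of the Scml2-KO regions and 6.04% of the wild-type regions, against 37.1% of the regions open in all 4 libraries. The median distance from summit to start site was 30682.5 bp for the Scml2-KO regions and 39531 bp for the wild-type regions, against 9227 bp for regions open in all 4 libraries. Over all 34084 regions open in exactly 2 of the 4 libraries, these included, the highest fold enrichment had a median of 5.09, promoters made up 5.55% and the median distance was 30694 bp. Introns held 35.7% of the Scml2-KO regions and 35.3% of the wild-type regions, and intergenic DNA held 37.3% of the Scml2-KO regions and 41.2% of the wild-type regions. All 19 autosomes held such regions, at 0.295% to 0.614% of a chromosome's regions for Scml2-KO and 2.41% to 3.55% for wild type.

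Among the regions with the pattern in both settings, those with the largest fold enrichments lay in introns, upstream of genes or between genes. The Scml2-KO region that led was in an intron of Thada, a gene named for human thyroid adenomas, 64166 bp from the start site of Zfp36l2, at chr17:84251952-84252270 (mm10). Its fold enrichment was 6.11 and 6.36 in Scml2-KO cells, with no peak in wild-type cells. Another, at chr12:111950220-111950621, 6005 bp from the start site of 5033406O09Rik and annotated by the authors to that gene together with Tdrd9, was at 5.60 and 5.56 in Scml2-KO cells and had no peak in wild-type cells. A region in an intron of Stk24, a kinase gene, at chr14:121310393-121310753, was also at 5.60 and 5.56 in Scml2-KO cells. Of the 10 leading Scml2-KO regions, 5 were in introns, 3 were intergenic and 2 were upstream of a gene.

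The leading wild-type region was intergenic, at chr15:16493576-16493919, 284356 bp from the start site of the cadherin gene Cdh9. It had no peak in Scml2-KO cells and fold enrichments of 12.1 and 10.4 in wild-type cells. An intergenic region at chr9:91655411-91655734, 286625 bp from the nearest start site, that of Zic4, likewise had no peak in Scml2-KO cells, and 10.9 and 8.73 in wild-type cells. A region in an intron of 2700054A10Rik, at chr17:13550996-13551324, had no peak in Scml2-KO Thy1 cells and 8.44 and 12.0 in wild-type Thy1 cells. The last of these had a peak in all 12 libraries of the other stages, Scml2-KO libraries included, as had 3 of the 4901 wild-type regions in all. In cKit cells it was at 5.33 and 21.5 in Scml2-KO libraries, against 8.90 and 15.4 in wild-type libraries.

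At promoters the same imbalance was seen as deposited and was smaller with equal lists. Of 20793 autosomal genes, 14 (0.0673%) had a promoter peak in both Scml2-KO libraries and neither wild-type library, 163 (0.784%) had one in both wild-type libraries and neither Scml2-KO library, and 13451 had one in all 4. With lists of equal length the counts were 74 (0.356%) for Scml2-KO and 98 (0.471%) for wild type. Patterns that cross the genotypes gave similar counts with equal lists. The replicate 1 libraries alone shared 100 genes and the replicate 2 libraries alone 124. Scml2-KO replicate 1 and wild-type replicate 2 alone shared 60, and the remaining pair alone 66. Only 2 genes kept the Scml2-KO pattern in both settings, and 14 kept the wild-type pattern. Genes open in Scml2-KO cells alone numbered 51 without Scml2-KO replicate 1, 186 without Scml2-KO replicate 2 and 175 without wild-type replicate 1. Genes open in wild-type cells alone numbered 931 without Scml2-KO replicate 1, 260 without wild-type replicate 1 and 633 without wild-type replicate 2. In the genotype with no promoter peak, a peak lay within 500 bp of the window in at least 1 library for 6 of the 14 Scml2-KO genes and 24 of the 163 wild-type genes.

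Of the germline lists, 3 genes had a promoter peak in wild-type cells alone, against 163 of all 20793 autosomal genes (0.784%). They were 1 of 29 stem and progenitor genes, 1 of 31 meiotic genes and 1 of 40 spermatid genes, with 0 of 18 differentiating genes. Pgk2, the phosphoglycerate kinase that takes over glycolysis in meiotic and later germ cells, had no promoter peak in Scml2-KO cells and 8.44 and 7.63 in wild-type cells, with lists as deposited and with equal lists. Sycp1, the transverse filament protein of the synaptonemal complex, had none in Scml2-KO cells and 3.62 and 3.82 in wild-type cells. Both are genes of meiosis or later, and both were open in pachytene spermatocytes of either genotype: Pgk2 was at 19.8 and 6.52 in Scml2-KO spermatocytes, against 23.2 and 10.6 in wild-type spermatocytes. Sycp1 was at 32.2 and 13.0 in Scml2-KO spermatocytes, against 27.9 and 21.1 in wild-type spermatocytes. Nanos2, an RNA-binding protein that maintains spermatogonial stem cells, had none in Scml2-KO cells and 4.22 and 4.36 in wild-type cells. A stronger peak outside its promoter window, 1645 bp from the window in Scml2-KO replicate 1, was present in all 4 libraries, at 25.0 and 12.7 in Scml2-KO cells, against 25.3 and 15.3 in wild-type cells.

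The other list members open in wild-type cells alone were 2 of 39 Hox genes, 3 of 73 other developmental regulators and 1 of 22 Sertoli cell genes. Over all autosomal genes the share was 0.784%, and no list was tested against it. Olig2, a factor of oligodendrocytes and motor neurons, had no peak in Scml2-KO cells and 9.04 and 4.36 in wild-type cells. Sox1, of neural progenitors, had none in Scml2-KO cells and 5.43 and 4.36 in wild-type cells, and Nkx2-1, of thyroid and lung, had none in Scml2-KO cells and 3.62 and 5.45 in wild-type cells. The clustered homeobox genes Hoxb6 and Hoxc6 had none in Scml2-KO cells, and 4.22 and 4.36 (Hoxb6) and 4.22 and 3.27 (Hoxc6) in wild-type cells. Dhh, the hedgehog signal that Sertoli cells send, had none in Scml2-KO cells and 6.03 and 4.36 in wild-type cells. Of these 9 list members, Pgk2 was the one that kept the pattern with equal lists. The 1 list member open in Scml2-KO cells alone was Csf1r, the growth factor receptor of macrophages, at 5.09 and 4.77 in Scml2-KO cells, with none in wild-type cells, where a peak lay 331 and 374 bp outside the window.

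The promoter sequences of 4 of these genes are shown. The 4 were picked without a fixed rule, and coverage by peaks was not computed for the others. The absence of Scml2-KO peaks from them follows from the pattern by which the genes were named. They run from 250 bases before the start site to 50 after it, are given 5′ to 3′ on the gene's strand and come from RefSeq (GRCm38.p6). Capitals mark matches, on either strand, to the GC box (GGGCGG), the CCAAT box (CCAAT), the TATA box (TATAAA), the E-box (CACGTG), the cAMP response element (TGACGTCA) or the AP-1 site (TGANTCA). The locations are chr17:40208560-40208859, minus strand, for Pgk2, chr3:102936051-102936350, minus strand, for Sycp1, chr16:91225300-91225599, plus strand, for Olig2 and chr15:98898491-98898790, minus strand, for Dhh.
Pgk2: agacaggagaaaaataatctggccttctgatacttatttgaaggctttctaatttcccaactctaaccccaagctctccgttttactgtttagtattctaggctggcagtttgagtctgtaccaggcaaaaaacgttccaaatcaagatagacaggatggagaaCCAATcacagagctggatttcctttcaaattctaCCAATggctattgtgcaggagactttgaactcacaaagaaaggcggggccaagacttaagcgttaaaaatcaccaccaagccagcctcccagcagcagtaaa
Sycp1: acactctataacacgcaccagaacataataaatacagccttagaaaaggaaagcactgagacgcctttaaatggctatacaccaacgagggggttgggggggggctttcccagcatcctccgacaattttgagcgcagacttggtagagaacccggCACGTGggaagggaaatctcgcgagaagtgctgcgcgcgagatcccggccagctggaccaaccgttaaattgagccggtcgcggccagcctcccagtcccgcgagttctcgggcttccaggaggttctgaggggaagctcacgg
Olig2: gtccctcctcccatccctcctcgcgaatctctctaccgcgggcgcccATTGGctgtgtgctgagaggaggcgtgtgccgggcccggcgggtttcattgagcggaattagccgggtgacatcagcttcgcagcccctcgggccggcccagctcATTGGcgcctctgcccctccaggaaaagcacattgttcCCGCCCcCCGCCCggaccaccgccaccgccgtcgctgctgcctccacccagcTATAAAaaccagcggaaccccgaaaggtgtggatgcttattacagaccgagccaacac
Dhh: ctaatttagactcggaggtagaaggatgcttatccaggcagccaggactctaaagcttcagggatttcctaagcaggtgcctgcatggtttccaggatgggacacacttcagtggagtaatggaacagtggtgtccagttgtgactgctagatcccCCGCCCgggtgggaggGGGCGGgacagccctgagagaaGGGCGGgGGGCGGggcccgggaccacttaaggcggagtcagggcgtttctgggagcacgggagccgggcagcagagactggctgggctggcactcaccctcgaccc
The wild-type peaks covered 194 and 188 of the 300 bases at Pgk2, 110 and 83 at Sycp1, 233 and 158 at Olig2, and 247 and 253 at Dhh, and the Scml2-KO peaks covered 0 in each. Pgk2 held 2 CCAAT boxes, which start 86 and 52 bases before the start site, and 37.4% of the 32851 promoters in the table hold at least 1. Dhh held 4 GC boxes, a motif found in 35.7% of promoters, and Olig2 held 2 GC boxes, 2 CCAAT boxes and a TATA box, the last found in 13.6%. Sycp1 held 1 E-box, found in 7.15% of promoters. A cAMP response element occurs in 1.79% of promoters and an AP-1 site in 7.81%, and the 4 sequences hold neither. The matches describe the letters only. A comparison of base composition between the 163 wild-type genes and other genes is not reported here. The table matched only 58.9% of the 163 by symbol and start site, and 66.3% of all autosomal genes, and such a check is void.

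Outside the lists, the genes that held the pattern in both settings included cases that rested on the edge of a peak. Lnx1, a ubiquitin ligase of the Numb protein, had a promoter peak of 11.2 and 4.77 in Scml2-KO cells and none in wild-type cells, where peaks of 7.84 and 8.18 lay 187 and 341 bp outside the window. With a window of 500 bp, Lnx1 had a peak in none of the 4 libraries. Crybb3, a lens crystallin, had 6.62 and 3.97 in Scml2-KO cells and none in wild-type cells, and counted by summit its peak was inside the window in Scml2-KO replicate 1 alone. Clec11a, a secreted lectin that acts as a growth factor, had none in Scml2-KO cells and 39.8 and 34.4 in wild-type cells. The same peak ended 87 and 18 bp outside the window in Scml2-KO cells, at 38.2 and 25.4, so the height differed much less than the presence. Nyap1, a neuronal adaptor of phosphoinositide 3-kinase, was a similar case, with none inside the window in Scml2-KO cells, where the peak was at 11.2 and 8.74, and 13.3 and 9.27 in wild-type cells. Counted by the summit of a peak inside the window, 15 genes were open in Scml2-KO cells alone and 166 in wild-type cells alone, and 9 and 154 of them were also found by overlap.

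The other 8 wild-type genes named from this group had fold enrichments between 6.00 and 9.04 in wild-type cells and no promoter peak in Scml2-KO cells. Svop and Rph3a encode synaptic vesicle proteins, Cntn5 a neural adhesion protein and Cdh23 the cadherin of hair cell tip links. H2-Eb2 encodes an antigen-presenting class II chain, Apoc1 an apolipoprotein and Gstp2 a glutathione transferase. Svop had none in Scml2-KO cells and 7.84 and 7.63 in wild-type cells. Cntn5 had none in Scml2-KO cells and 9.04 and 6.54 in wild-type cells, and H2-Eb2 had none in Scml2-KO cells and 6.63 and 7.09 in wild-type cells. Peaks of the lists start at a fold enrichment of 3.06 and 3.18 in Scml2-KO cells, against 3.01 and 3.27 in wild-type cells. The highest value of a region had a median of 5.09 over all regions. These 8 genes lay above that median in wild-type cells, but the way they were chosen leads to this. Equal lists keep wild-type peaks from 6.03 and 4.36, and the genes were ordered by the lower of their 2 values.

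**Figure D2:**
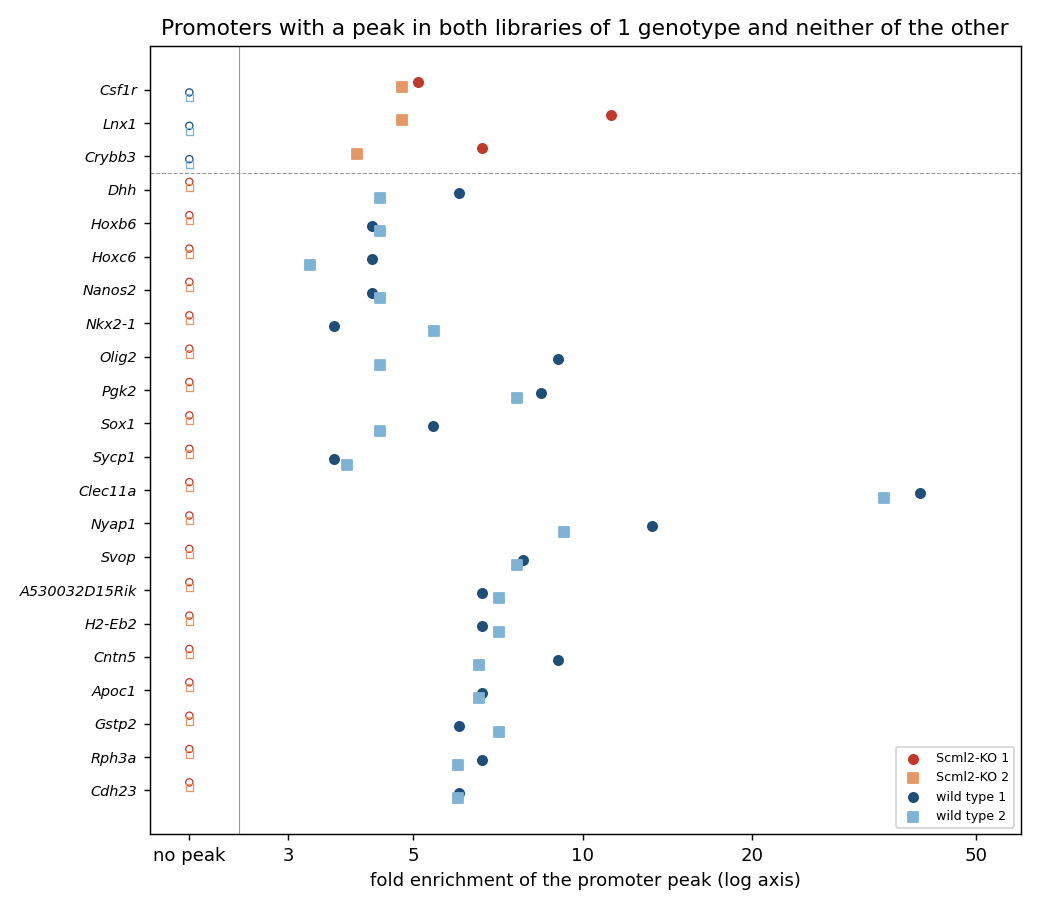
Fold enrichment of the promoter peak (log axis) in each Scml2-KO (red circle, orange square) and wild-type (dark blue circle, pale blue square) library for the 22 promoters named by their presence pattern, with open symbols at the left for no peak. The 3 genes above the dashed line had a peak in Scml2-KO cells alone; below it, Clec11a at 39.8 and 34.4 in wild-type cells lies far above the others, which lie between 3.27 and 13.3.

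In the nearest stage of the series, cKit cells of the same age, few of these genes showed the same pattern. Of the 163 wild-type genes, 2 (1.23%) also had a promoter peak in both wild-type and neither Scml2-KO library of cKit cells, against 26 of all 20793 genes (0.125%), and 1 had the reverse. These 2 were Pgk2, with none in Scml2-KO cKit cells and 5.34 and 5.14 in wild-type cKit cells, and Gm13003, which is named here because the count is small. None of the 14 Scml2-KO genes had the pattern in either direction in cKit cells, where 25 of all 20793 genes (0.120%) had the Scml2-KO pattern. Of the 4901 wild-type regions, 37 (0.755%) repeated the pattern in cKit cells and 4 reversed it, against 423 of all regions (0.270%) with the wild-type pattern in cKit cells. Of the 686 Scml2-KO regions, 0 had the Scml2-KO pattern in cKit cells, against 113 of all regions (0.0722%), and 1 reversed it. The cKit lists of Scml2-KO replicate 2, at 17410 autosomal peaks, and of wild-type replicate 2, at 31617, were short, which limits how often a pattern can repeat.

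Heights of peaks present in all 4 libraries were compared on log2 fold enrichment after the median of each library was subtracted, with limma and Benjamini-Hochberg adjustment. At 13451 promoters open in all 4 libraries, 0 were higher (0.0%) and 1 was lower (0.00743%) in Scml2-KO cells at an adjusted p under 0.05. At 33944 regions open in all 4 libraries, 0 were higher (0.0%) and 0 were lower (0.0%), and the lowest adjusted p in limma was 0.999. At an unadjusted p under 0.05 limma gave 588 promoters (4.37%) and 1061 regions (3.13%). The median standard error of a log2 fold change was 0.27 for promoters and 0.35 for regions, and the median log2 fold change was 0.05 and 0.01. From the 5th to the 95th percentile, log2 fold changes ran from -0.39 to 0.51 at promoters and from -0.49 to 0.58 at regions. Without subtraction of the library medians, the median promoter was at -0.43 and the median region at -0.35, so changes are given relative to the median. Whether the differences in height between genotypes also differed between Thy1 and cKit cells was tested in limma by an interaction term over 12916 regions open in all 8 libraries, and 0 (0.0%) passed, with 218 at an unadjusted p under 0.05.

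The 1 promoter that passed was 4930511A02Rik, an unnamed RIKEN gene on chromosome 12. Its fold enrichment was 7.64 and 3.97 in Scml2-KO cells, against 28.3 and 21.3 in wild-type cells, and the groups did not overlap. The log2 fold change was -1.68 with a standard error of 0.30 (limma adjusted p = 0.000314). The call rested on a peak that only touched the window. With peaks whose summit lies inside the window, the values were 7.64 and 3.97 in Scml2-KO cells, against 10.9 and 9.27 in wild-type cells, and the log2 fold change was -0.39 (limma adjusted p = 0.997). That definition called 2 other promoters instead. Bdh1, an enzyme of ketone bodies, was at 19.9 and 16.7 in Scml2-KO cells, against 7.84 and 6.54 in wild-type cells, with a log2 fold change of 1.82 (limma adjusted p = 2.32e-05), whereas by any overlap it was at 20.4 and 16.7 in Scml2-KO cells, against 35.0 and 24.0 in wild-type cells. Kat6b, a histone acetyltransferase, was at 35.7 and 23.8 in Scml2-KO cells, against 35.6 and 7.09 in wild-type cells, with 1.35 (limma adjusted p = 0.000124), and by any overlap wild-type replicate 2 was at 24.5. The 4930511A02Rik call was kept with equal lists (limma adjusted p = 0.00184) and at a mean fold enrichment of 5 or more (limma adjusted p = 0.000674). It was also lost under other settings, in which its log2 fold change was close to or beyond -1.68. The log2 fold change was -2.16 without subtraction of medians (limma adjusted p = 0.758) and -1.82 with quantile normalisation (limma adjusted p = 0.466). It was -1.78 without Scml2-KO replicate 1 (limma adjusted p = 0.0517), -1.66 without wild-type replicate 1 (limma adjusted p = 0.999) and -1.73 without wild-type replicate 2 (limma adjusted p = 0.254).

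The other promoters with the lowest unadjusted p did not pass after adjustment. Zc3h7b, a zinc finger gene, had 8.66 and 8.74 in Scml2-KO cells, against 6.63 and 3.82 in wild-type cells, with a log2 fold change of 1.26 (limma adjusted p = 0.562). Kcp, a secreted modulator of BMP signals, had 12.7 and 8.74 in Scml2-KO cells, against 8.44 and 5.45 in wild-type cells. Grm8, a metabotropic glutamate receptor, had 17.8 and 11.1 in Scml2-KO cells, against 9.04 and 10.9 in wild-type cells, and its log2 fold change was 0.02 by summits inside the window. Rpl6, a ribosomal protein, had 8.15 and 10.3 in Scml2-KO cells, against 7.24 and 5.45 in wild-type cells. In all 4 the lower Scml2-KO value lay above the higher wild-type value.

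In the other direction, Scml2-KO replicate 2 held the lowest fold enrichment at 9 of the 10 promoters with the lowest p, before the library medians were subtracted. The median of that library is low, and the share over all promoters was not counted. After the medians were subtracted, Scml2-KO replicate 1 held the lowest value at Wnt6, Rgs16 and Suv420h1. Prdx3, a peroxiredoxin of mitochondria, had 25.5 and 5.56 in Scml2-KO cells, against 36.8 and 27.8 in wild-type cells, with a log2 fold change of -0.95 (limma adjusted p = 0.512). Lonp2, a protease of peroxisomes, had 22.9 and 7.15 in Scml2-KO cells, against 30.8 and 34.9 in wild-type cells. Rtfdc1, a replication termination factor, had 17.3 and 5.56 in Scml2-KO cells, against 25.9 and 27.8 in wild-type cells. Wnt6, a signalling ligand, had 5.09 and 3.97 in Scml2-KO cells, against 24.7 and 8.18 in wild-type cells, with a log2 fold change of -0.36 by summits inside the window. Suv420h1, a histone H4 methyltransferase, was at 6.11 and 8.74 in Scml2-KO cells, against 23.5 and 20.2 in wild-type cells, but by summits inside the window at 6.11 and 6.36 in Scml2-KO cells, against 9.65 and 6.54 in wild-type cells. At Suv420h1 the sign of the log2 fold change turned with that definition, to 0.12.

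**Figure D3:**
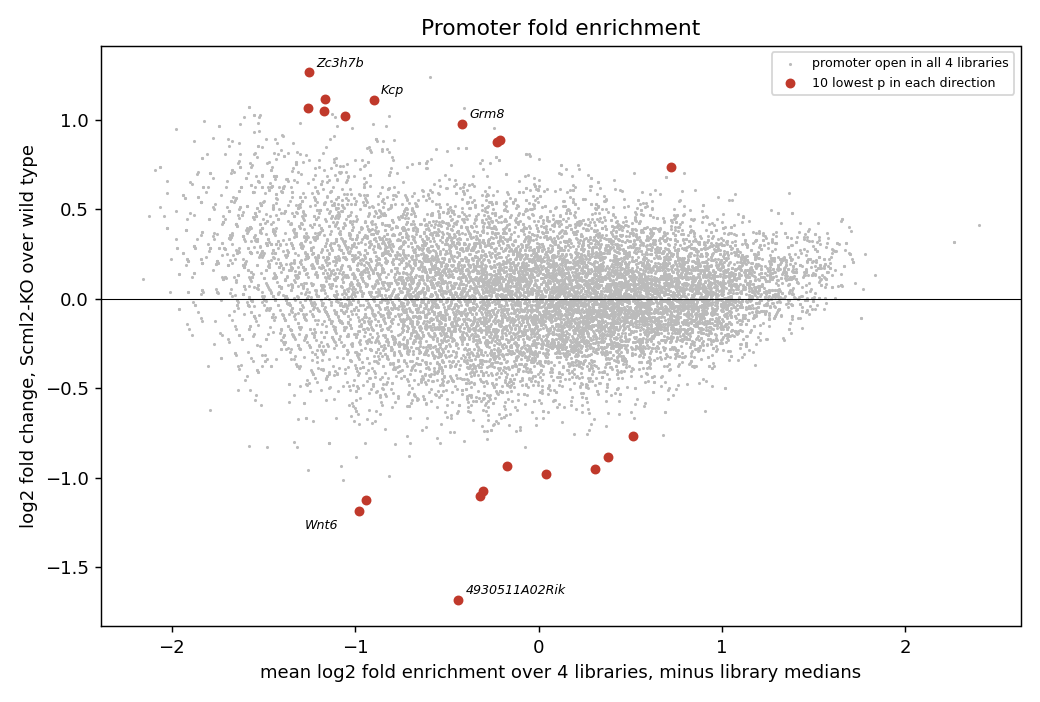
Log2 fold change of promoter fold enrichment, Scml2-KO over wild type, against the mean log2 fold enrichment over the 4 libraries after subtraction of library medians, for 13451 promoters open in all 4 libraries (grey); red points are the 10 promoters with the lowest limma p in each direction. The cloud is centred near 0 and 4930511A02Rik, at -1.68, lies alone below it.

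Regions open in all 4 libraries gave no call in limma in either direction. The lowest unadjusted p among regions with the larger values in Scml2-KO cells belonged to an intron of Atp10a, a phospholipid flippase, at 18.9 and 8.74 in Scml2-KO cells, against 13.9 and 3.27 in wild-type cells, with a log2 fold change of 1.29. Next came a region 14573 bp from the start site of Irgm1, an interferon-induced GTPase, at 16.8 and 20.7 in Scml2-KO cells, against 15.1 and 9.27 in wild-type cells. In the other direction an exon of Trpm3, an ion channel, was at 3.06 and 3.18 in Scml2-KO cells, against 14.5 and 10.4 in wild-type cells, with a log2 fold change of -1.61 (limma adjusted p = 0.999). An intron of Fam172a was at 8.15 and 3.18 in Scml2-KO cells, against 15.7 and 15.3 in wild-type cells. None of these 4 passed after adjustment.

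No gene list had a promoter that passed in limma. In 13 of the 15 lists, as deposited, fewer members had a promoter peak in replicate 2 than in replicate 1, in both genotypes. The Hox genes are the textbook targets of Polycomb repression. Of 39 measured, 21 and 10 had a promoter peak in Scml2-KO cells, against 30 and 19 in wild-type cells, as deposited. With equal lists the shares were 30.8% and 25.6% in Scml2-KO cells, against 41.0% and 33.3% in wild-type cells, and over all autosomal genes they were 65.7% and 66.2% in Scml2-KO cells, against 66.3% and 66.6% in wild-type cells. The Hox groups therefore did not overlap with equal lists, though they did as deposited, and no p was computed for it. The differentiating and the Sertoli list, and all autosomal genes together, also did not overlap with equal lists, at 83.3% and 83.3% of differentiating genes in Scml2-KO cells, against 72.2% and 77.8% in wild-type cells, and 72.7% and 72.7% of Sertoli genes in Scml2-KO cells, against 81.8% and 81.8% in wild-type cells. Of the 10 Hox promoters open in all 4 libraries, 3 had values above those of wild type in both Scml2-KO libraries after the medians were subtracted and 0 had values below, against 2638 (19.6%) and 1620 (12.0%) of all promoters. Their median log2 fold change was 0.20, against 0.05 for all promoters. These Hox promoters were weak, with fold enrichments from 3.57 to 12.7. Peaks of the 4 lists start at 3.01 to 3.27, while the library medians differ and that of Scml2-KO replicate 2 is low. Subtraction of that median can therefore place weak promoters relatively high in this library, and its part in these values was not tested. Hoxd4 was at 8.66 and 7.95 in Scml2-KO cells, against 7.84 and 4.91 in wild-type cells, with a log2 fold change of 0.89 that did not pass. The annotation names Hoxd4 only together with another gene, and its start site was also that of Hoxd8. Hoxd8 was at 8.66 and 6.36 in Scml2-KO cells, against 7.84 and 4.91 in wild-type cells. Both are among the 3 counted above, so these are not separate observations.

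The shares of other developmental regulators met or overlapped between the genotypes in both settings. Of 73, 50 and 45 had a promoter peak in Scml2-KO cells, against 62 and 50 in wild-type cells, as deposited, and with equal lists the shares were 53.4% and 61.6% in Scml2-KO cells, against 53.4% and 60.3% in wild-type cells. Of the 39 open in all 4 libraries, 3 had values above those of wild type in both Scml2-KO libraries after the medians were subtracted. Another 7 had values below, against 19.6% above and 12.0% below over all promoters.

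Genes that encode Polycomb proteins were open in nearly every library, with 34 and 33 of 36 in Scml2-KO cells, against 35 and 33 in wild-type cells. Of the 33 open in all 4 libraries, 3 had values above those of wild type in both Scml2-KO libraries after the medians were subtracted. Another 9 had values below, against 19.6% above and 12.0% below over all promoters. L3mbtl2, a subunit of a variant PRC1 complex, was at 12.7 and 5.56 in Scml2-KO cells, against 19.9 and 19.1 in wild-type cells, with a log2 fold change of -0.74 that did not pass. Ezh2, the methyltransferase of PRC2, was at 28.0 and 19.1 in Scml2-KO cells, against 35.0 and 25.6 in wild-type cells, and Bmi1, of PRC1, was at 22.4 and 14.3 in Scml2-KO cells, against 22.9 and 24.5 in wild-type cells.

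Genes of the differentiating stage had the highest median of the 15 lists. Of 18, 15 were open in all 4 libraries, with a median log2 fold change of 0.30, and 5 had values above those of wild type in both Scml2-KO libraries and 1 had values below. Over all promoters 19.6% lay above and 12.0% below, and the counts of this list and of those that follow are read against these shares. Above and below refer to values after the library medians were subtracted, so fold enrichments as printed can still overlap. Ddx4, for example, counted as above at 4.59 and 3.18 in Scml2-KO cells, against 3.62 and 3.82 in wild-type cells. Rarg, a retinoic acid receptor, was at 15.8 and 9.54 in Scml2-KO cells, against 13.3 and 8.73 in wild-type cells, with a log2 fold change of 0.66 that did not pass. Dmrt1, a factor that holds back meiosis, was at 11.7 and 7.95 in Scml2-KO cells, against 9.04 and 9.82 in wild-type cells. The stem and progenitor list had a median of 0.05, the same as all promoters, with 4 genes above and 1 below. The meiotic list had a median of 0.04 over 18 genes, with 2 above and 1 below, and the spermatid list a median of 0.11 over 11 genes, with 1 above and 3 below. Genes of sex chromosome silencing and the DNA damage response had a median of 0.07 over 22 genes, with 6 above and 0 below, and housekeeping genes a median of 0.06 over 23, with 7 above and 2 below. Neuronal genes, with a median of 0.00 over 21, had 4 above and 4 below.

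Among the somatic lists, Leydig and steroidogenic genes had the lowest median, -0.30 over 5 promoters open in all 4 libraries, with 0 above and 3 below, against the same 19.6% and 12.0% of all promoters. The Sertoli list had a median of 0.14 over 15, with 5 above and 0 below after the medians were subtracted. Its gene Wt1 was at 22.9 and 13.5 in Scml2-KO cells, against 24.1 and 14.7 in wild-type cells. Wt1 counted as above only after the medians were subtracted. Sox9, which overlapped, was at 18.9 and 6.36 in Scml2-KO cells, against 18.7 and 18.0 in wild-type cells. The endothelial list had 0.24 over 7 promoters, the peritubular list -0.01 over 11 and the blood and immune list 0.15 over 3. No promoter of these lists passed in limma. Their part in the differences between genotypes was not tested.

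**Figure D4:**
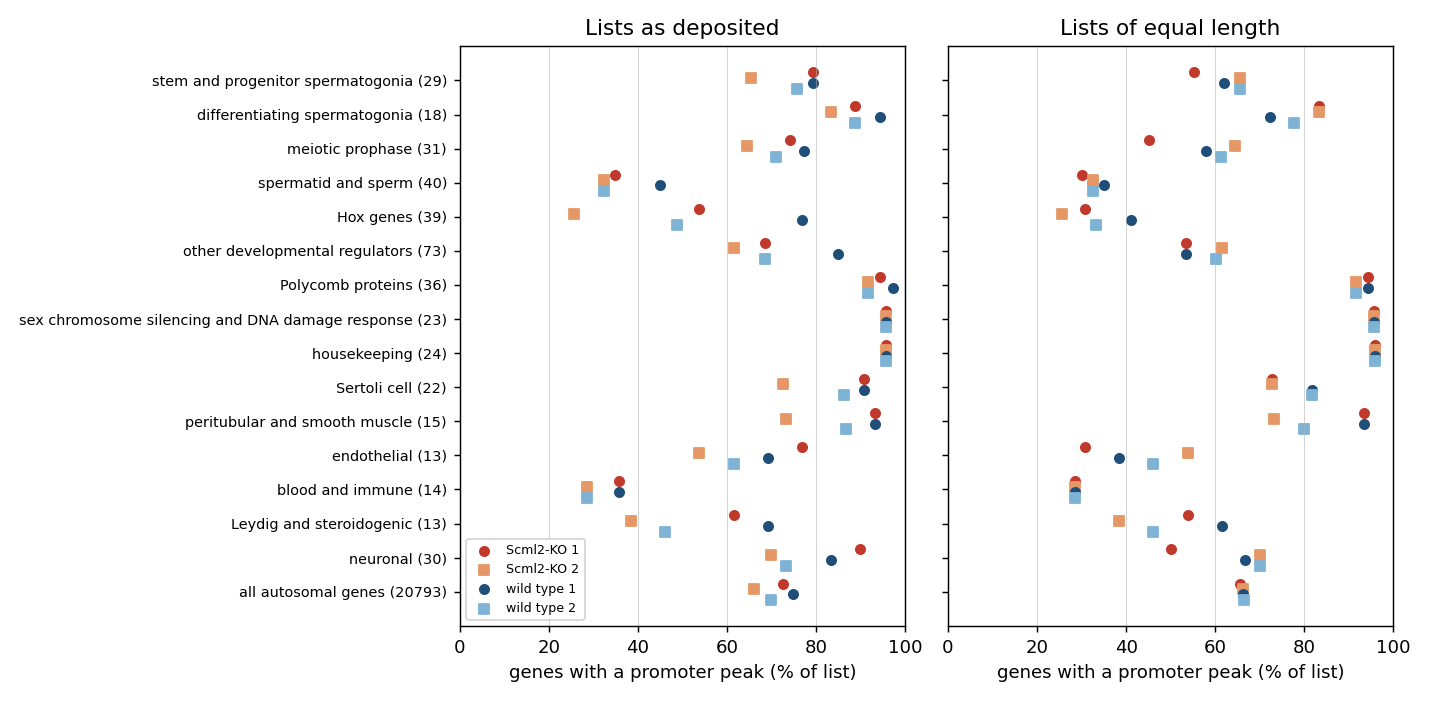
Percentage of genes that had a promoter peak, by gene list, in each Scml2-KO (red circle, orange square) and wild-type (dark blue circle, pale blue square) library, with lists as deposited (left) and of equal length (right); the number of genes measured is in brackets. As deposited, the replicate 2 libraries lie left of the replicate 1 libraries of the same genotype in 13 of the 15 lists, and all autosomal genes lie at 65.7% to 66.6% with equal lists.

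The share of peaks at promoters differed more within the Scml2-KO genotype than between the genotypes. Promoters, in the authors' classes, held 17.5% and 32.2% of autosomal peaks in Scml2-KO cells, against 15.6% and 23.5% in wild-type cells, or 24.8% ± 10.4 and 19.6% ± 5.60 (SD, n = 2 each, exact two-sided permutation p = 0.667). The Wilson 95% confidence intervals of these shares reach at most 0.407 percentage points to either side, and they cover counting error only. With equal lists the promoter share was 29.6% ± 3.69 in Scml2-KO cells, against 28.2% ± 1.07 in wild-type cells (SD, n = 2 each, exact two-sided permutation p = 1). Intergenic peaks were the 1 class in which the genotypes did not overlap as deposited, at 28.4% ± 3.45 in Scml2-KO cells, against 31.3% ± 0.431 in wild-type cells (SD, n = 2 each, exact permutation p = 0.333, the smallest possible), and they overlapped with equal lists (exact permutation p = 0.667). The difference in promoter share, Scml2-KO minus wild type, was -2.10 percentage points without Scml2-KO replicate 2, against 5.27 with all 4 libraries.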

How the data were processed

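Thy1+ spermatogonia of both genotypes were profiled by ATAC-seq, and each library has its own deposited peak list. Per the submitters' processing notes, Bowtie 1.1.1, MACS2 2.1.0.20140616 and mm10 were used; the sources used here do not give the options. Per the file headers, the authors deposited for each summit a pileup (the coverage signal at the summit), a fold enrichment (a ratio, linear), and significance as −log10 p and −log10 q. Read depth per library is unknown here.

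Lines with equal chromosome, start and end were joined, 127 mitochondrial lines of 470311 were dropped, and peaks that overlapped by 1 bp were merged. A promoter peak overlapped 1000 bp on either side of a start site in the authors' annotation, whose genes that appear only together with another gene (1304) were given the start site of the pair. Presence was counted as deposited and with 52113 peaks per list, which left −log10 q values of at least 5.90 and 1.57 in Scml2-KO lists, against 6.34 and 3.30 in wild-type lists. limma 3.58.1 in R 4.3.3 (lmFit, eBayes with trend) was fitted to log2 fold enrichment without a block, and its prior was so strong that each feature took the variance of the trend. Exact permutation tests used scipy 1.17.1. The fits were tested on simulated data with noise drawn from the fitted variance, which replaced a first simulation with reshuffled replicate variances in which fewer changes were recovered, so the test checks the fit and not the power of the design. Samples were grouped by their titles, and replicate numbers in the deposited names differed from the titles, which were followed.

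Replicate numbers gave only 2 pairs, so they were not taken to pair the samples. Genes and regions were named where a list member had a presence pattern as deposited, where up to 10 others per direction had it in both settings, and where up to 10 promoters or regions per direction had the lowest limma p among groups that did not overlap; Scml2 was always named. Members, lists and rules were chosen with earlier results of these data known. Alternatives were other thresholds, window, overlap and scaling, and each library left out. 2 definitions by summit were added after the data were seen. Some results that these rules would name are not reported here.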

Additional observations from a re-analysis of the deposited data

Results flagged for a closer look

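The 38 named results compared with cKit cells included all promoters named by their presence pattern, which were checked by presence alone. The rest were open in all 8 libraries and were compared on log2 fold enrichment minus the library median over such features. In 4 of the rest, both Scml2-KO libraries lay to the same side of both wild-type libraries in Thy1 cells. In cKit cells they lay to the opposite side. The share of all features with such a pattern was not counted. At the Kcp promoter the difference, Scml2-KO minus wild type, was -0.36 in cKit cells and 1.09 in Thy1 cells. At the Suv420h1 promoter it was 1.08 in cKit cells and -1.12 in Thy1 cells, and the Thy1 value rests on a peak edge, since its sign turned when summits inside the window were used. At the Lonp2 promoter it was 0.30 in cKit cells and -0.90 in Thy1 cells. The difference between the stages was not tested for these 3 promoters. At the region over the same Lonp2 start site it was 0.35 in cKit cells and -0.88 in Thy1 cells, and the interaction term in limma was -1.23 with a standard error of 0.37 (adjusted p = 1.00).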

How the results depend on the processing

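Presence counts depended on the setting. With equal lists, 1477 regions and 74 genes were open in Scml2-KO cells alone, against 2182 regions and 98 genes in wild-type cells alone. At −log10 q of 5 or more, 146 regions were open in Scml2-KO cells alone. At a fold enrichment of 5 or more, 232 were open in Scml2-KO cells alone and 2356 in wild-type cells alone. With 1 library left out, which makes a pattern easier to meet, the counts ran from 926 to 18537 regions and 21 to 186 genes for Scml2-KO cells alone, and from 5543 to 41025 regions and 194 to 931 genes for wild-type cells alone. An overlap of 50 bp, a 500 bp window and summits inside the window kept all presence counts within 1.5 times. Both summit definitions were chosen after the data were seen. The highest summit of a joined peak came first (18 and 173 genes). Every summit (15 and 166 genes) was adopted once the 6 promoters below had been called, since the first misses wide peaks whose highest summit is outside.

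In limma the promoter calls were 0 without centring, 0 with quantile normalisation, 2 by every summit (Bdh1 and Kat6b) and 6 by the highest summit (Gemin2 lower in Scml2-KO cells, and Agbl5, Pbx3, Podxl2, Setd5 and Trerf1 higher), with 0 genes shared between any 2 of the 3 definitions. Without 1 library they ran from 1 to 8, the largest count without Scml2-KO replicate 2. Region calls ran from 0 to 6 without 1 library (6 without Scml2-KO replicate 1, 2 without wild-type replicate 2 and 1 without wild-type replicate 1), and interaction calls from 0 to 1 (1 without cKit Scml2-KO replicate 1). The lone sample of a group is assumed to vary like the others. With the replicate number as a block, limma called 2 promoters (4930511A02Rik and Rn45s), 0 regions and 0 interactions. Deviations from the group means correlated at 0.22 over regions and 0.12 over promoters between libraries of the same number. The log2 fold change of Suv420h1 turned to 0.12 by every summit and that of Grm8 to -0.83 by the highest summit. The difference in promoter share ran from -2.10 to 12.6 percentage points without 1 library. The cause of these changes was not tested. Low peaks near the caller's threshold, and an unknown read depth, limit what absence can show.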
